A study of Arabidopsis thaliana with 12 samples.

Results

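The genes described here are those of the Arabidopsis chloroplast genome, as they appear in RNA-seq libraries from leaves. They were taken as every locus of the count table whose identifier starts with ATCG and whose counts sum to at least 120 over all libraries, which gave 79 of 133 chloroplast loci in a table of 32678 genes. Each of the 12 libraries pooled discs from syringe-infiltrated leaves of 6 plants, 4 weeks old and kept in short days, and each of 6 groups had 2 libraries. Col-0 wild type and camta3-D (sr1-4d), which carries a dominant mutation in the gene of the transcription factor CAMTA3, were each given 3 treatments. Samples were taken 1 h after 100 nM flg22 or 4 h after Pst DC3000 AvrRpm1 or Pst DC3000 AvrRps4, both at OD600 = 0.001. The peptide flg22 is a piece of flagellin, which plants perceive outside their cells, while the effectors AvrRpm1 and AvrRps4 of Pst (Pseudomonas syringae pv. tomato) trigger receptors within them. No mock-treated library was analysed here, so a genotype difference after a treatment cannot be told apart from one that exists without it. The mutation changes the CAMTA3 protein, so transcript counts do not check the genotype labels. The study's text calls the flg22 and AvrRpm1 samples independent experiments and does not say so for AvrRps4, so the p-values measure only the spread between these samples.

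A chloroplast keeps a small genome of its own, which encodes core subunits of both photosystems, of the cytochrome complex, of ATP synthase and of the NADH dehydrogenase-like complex, the large subunit of Rubisco, part of the plastid ribosome, and an RNA polymerase. Most other chloroplast proteins, among them the sigma factors that direct this polymerase and the proteins that splice, trim and degrade its transcripts, are made from nuclear genes. Chloroplast transcripts differ from nuclear mRNA in that a poly(A) tail marks them for decay rather than for translation. The libraries were made from polyadenylated RNA, so the counts come from the part of chloroplast RNA that carried a tail, bound through its own A-rich stretches or was carried over. A change in transcript level and a change in the share of transcripts with a tail cannot be told apart in such libraries. In these pooled discs, fewer chloroplast-containing cells and less chloroplast RNA per cell cannot be told apart either.

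The files name chloroplast genes by locus identifier only, and the RefSeq annotation of the TAIR10.1 build names them by gene without these identifiers. Gene names are given for 6 identifiers, paired through RefSeq notes on nuclear genes that name a chloroplast locus as their closest relative and an alignment of the nuclear sequence with every chloroplast gene. The 5 of them that met the count limit were ndhJ (ATCG00420) and ndhK (ATCG00430), subunits of the NADH dehydrogenase-like complex, cemA (ATCG00530), a protein of the chloroplast envelope, rpl20 (ATCG00660), a protein of the plastid ribosome, and clpP (ATCG00670), the proteolytic subunit of the Clp protease. The alignment score of the paired gene was 155 to 404, and that of the next best gene or strand was 32 to 56. All other genes are given by identifier, with no name or role.

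Because poly(A) selection can hold on to internal A stretches, the longest run of A in each of the 5 named genes is shown in capitals. The annotated gene was searched on its own strand, with its introns and without sequence outside it. Each run is given within 30 bases of sequence from RefSeq (TAIR10.1, chloroplast genome Pltd).
ndhJ, Pltd:48880-48909, minus strand, coding exon: aagaagtctgcatAAAAgtatttactcaca
ndhK, Pltd:49879-49908, minus strand, coding exon: tgatcgaacaacAAAAAAttccgttatttc
cemA, Pltd:60741-60770, plus strand, coding exon: atggcAAAAAAgaaagcattcattcctttt
rpl20, Pltd:68512-68541, minus strand, coding exon: tatacaatttcgaatgacatAAAAAAAtaa
clpP, Pltd:70395-70424, minus strand, intron: cacaccgtAAAAAAAAAAAAAgacactttg

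The runs were 4 bases long in ndhJ, 6 in ndhK and cemA, 7 in rpl20 and 13 in an intron of clpP. Over all 87 protein-coding records of the chloroplast annotation the longest run had a median of 6 bases (2 to 14), and 25.3% of records held a run of at least 8. Levels were taken here as counts summed over all libraries, relative to the summed gene counts and without further scaling. They are given in CPM, the usual unit for counts relative to library size. Per kb of coding sequence they were 383 for ndhK, 317 for ndhJ, 72.3 for clpP, 24.8 for cemA and 7.84 for rpl20. Among these genes ndhJ had the shortest run and the second highest level. The longest run was that of clpP, whose level was below those of ndhK and ndhJ. That run lies in an intron, however, while the level was set against coding sequence. Whether A runs affected the counts was not tested.

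Some chloroplast genes cannot be aligned uniquely. The chloroplast genome holds a large inverted repeat, and HTSeq leaves out reads that align to more than 1 place. The identifier ATCG01310 was paired with rpl2, a ribosomal protein gene with 2 copies, at Pltd:84337-85843 on the minus strand and Pltd:152806-154312 on the plus strand. The copies are identical over 1507 bases and none of their 50-base windows is unique in the genome. The longest A run of this gene also has 7 bases.
rpl2, Pltd:84421-84450, minus strand, coding exon: ccaattggtagAAAAAAAcccgtaaccccc
The table gave this locus 32 counts over all 12 libraries, below the limit. The 5 named genes, in contrast, consist entirely of unique 50-base windows. Of 131 chloroplast genes in the annotation, 34 have no unique window and 77 have only unique ones. In the count table, 24 of the 54 chloroplast loci below the limit were at 0 in all libraries and 30 had at least 1 count and at most 116. Just inside the limit stood ATCG00390 with 147 counts and ATCG00950 with 153, and just outside it ATCG01180 with 116 and ATCG00250 with 105. ATCG00390 had 5 to 17 counts per library, whereas 45 of the counts of ATCG00950 and 44 of those of ATCG01180 came from a single library, camta3-D AvrRpm1 replicate 2. The 79 genes held 99.95 to 99.98% of chloroplast counts in each library, none was at 0 in any library, and all 79 passed the filter on low counts.

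The libraries held 22.8 M to 26.3 M counts on genes. Values below are CPM scaled by the trimmed mean of M values (TMM), which sets libraries to a common level of the typical gene, unless they are called shares. The TMM factors were 0.797 to 0.825 in flg22 libraries and 1.04 to 1.17 in Pst libraries. The nuclear leaf markers RBCS1A (8730 to 21090 CPM), CAB1 (26070 to 46910 CPM) and CA1 (1415 to 4403 CPM) were high in all libraries. Over all libraries the root markers RHD6, EXPA7 and PYK10 had 0, 1 and 14 counts. Of the flower and seed markers, CRA1 had 14 counts and AG had 181, at 0.0967 to 1.35 CPM. One library stood apart. In camta3-D AvrRpm1 replicate 2, 7.78% of alignments were not unique, against 2.56 to 3.43% in the other 11, and mitochondrial genes took 0.0255% of gene counts, against 0.00806 to 0.0142%. The main results that include it are also given without it.

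A few genes made up most of the chloroplast counts. ATCG00480 took 33.8% and ATCG00470 19.9% of the counts of the 79 genes, so that these 2 loci held 53.7%, the first 5 held 72.7% and the first 10 held 87.5%. ATCG00480 ranked first and ATCG00470 second in every library, with shares of 30.7 to 37.8% and 18.6 to 20.9%. They were followed by ATCG00790 (6.95%), ATCG01020 (6.59%), ATCG01130 (5.51%), ATCG00220 (4.24%), ATCG00780 (3.59%), ATCG00800 (3.56%), ndhK (2.05%) and ATCG00270 (1.38%). These are shares of counts and not of transcripts, since the lengths of genes known by identifier alone were not used. At the other end, 27 of the 79 genes had fewer than 1000 counts over all libraries, 27 had at least 1000 but under 10000, 17 had at least 10000 but under 100000 and 8 had 100000 or more. The rank correlation of the 79 levels between the replicates of a group was 0.978 to 0.994, and the lowest between any libraries was 0.969.

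For 6 of the 10 leading loci, ATCG00480, ATCG00470, ATCG00790, ATCG01020, ATCG00220 and ATCG00780, both wild-type flg22 libraries were above all others. This holds on the TMM scale, and how many of all genes do the same was not counted. As a share of gene counts, chloroplast loci together were highest in wild type AvrRps4 replicate 1, at 1.64%. ATCG00470 stood at 3955 and 3271 CPM in wild type and 2384 and 2940 in camta3-D after flg22, at 2275 and 2316 and at 2279 and 2697 after AvrRpm1, and at 2740 and 2277 and at 1625 and 1721 after AvrRps4. ATCG00790 stood at 1424 and 1109 CPM in wild type and 992 and 1023 in camta3-D after flg22, at 732 and 816 and at 734 and 1076 after AvrRpm1, and at 938 and 652 and at 663 and 532 after AvrRps4. In both loci the camta3-D AvrRps4 libraries were at the low end, although for ATCG00790 they met the range of wild type. ATCG01020 ranged from 560 to 1403 CPM, ATCG01130 from 422 to 1241, ATCG00780 from 241 to 780 and ATCG00800 from 251 to 762, each with its highest value in wild type flg22 replicate 1. The named genes differed in this. clpP ranged only from 35.0 to 52.9 CPM, with its highest value in camta3-D flg22 replicate 1, and ndhK, ndhJ and cemA had their highest values in wild type flg22 replicate 2. The lowest of them, rpl20, stayed between 1.62 and 3.97 CPM.

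The share of gene counts on chloroplast loci was 0.908 to 1.64%. After flg22 it was 1.58 and 1.32% in wild type and 1.02 and 1.14% in camta3-D. After AvrRpm1 it was 1.27 and 1.37% in wild type and 1.24 and 1.60% in camta3-D. After AvrRps4 it was 1.64 and 1.20% in wild type and 0.908 and 0.911% in camta3-D. Both camta3-D libraries lay below both wild-type libraries after flg22 and after AvrRps4, whereas after AvrRpm1 the wild-type libraries lay between the camta3-D libraries. The Wilson 95% intervals for a binomial share, which cover counting error only, were far narrower than the spread between most replicates, as for the wild-type flg22 libraries at 1.577 to 1.587% and 1.317 to 1.326%. Over the 3 treatments the share in camta3-D was 0.803 times that in wild type (log2 difference -0.32, exact permutation test within treatments, two-sided p = 0.0556, smallest possible 0.00926), and the mean share was lower in camta3-D after 2 of the 3 treatments. Without camta3-D AvrRpm1 replicate 2 the difference was -0.38. It was -0.24 without wild type AvrRps4 replicate 1 and -0.39 without wild type AvrRps4 replicate 2, the ends of the range with each library left out. The share did not differ detectably between flg22 and Pst (log2 difference 0.01, exact permutation p = 0.947), whose ranges overlapped at 1.02 to 1.58% and 0.908 to 1.64%. After AvrRpm1 it was 1.21 times that after AvrRps4 (log2 difference 0.27, exact permutation p = 0.222, smallest possible 0.0556), a test that cannot pass 0.05. This log2 difference was 0.18 without camta3-D AvrRpm1 replicate 2 and 0.16 without wild type AvrRps4 replicate 2. With Benjamini-Hochberg adjustment over these 3 comparisons the p-values were 0.167, 0.947 and 0.333.

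**Figure D1:**
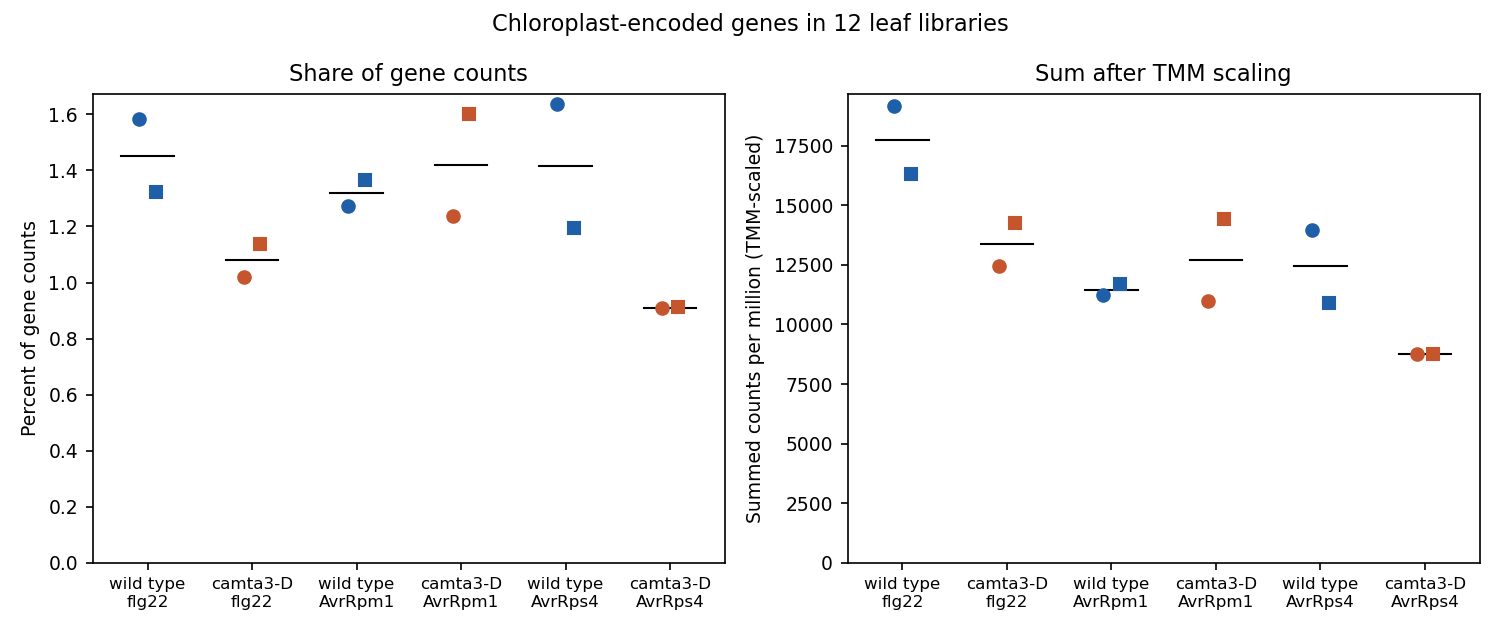
Chloroplast-encoded genes as a percent of gene counts (left) and as summed TMM-scaled CPM (right) in each library, by group. Circles are replicate 1, squares replicate 2 and lines group means. Both panels put the camta3-D AvrRps4 libraries lowest, at 0.908 and 0.911%, while the flg22 libraries of wild type stand clear of all others only on the right.

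Scaling decided what could be said of flg22 against Pst. Summed over chloroplast genes, TMM-scaled levels were 17750 ± 2008 CPM (SD, n = 2) in wild type and 13370 ± 1273 in camta3-D after flg22. They were 11460 ± 318 and 12700 ± 2425 CPM after AvrRpm1 and 12450 ± 2164 and 8745 ± 1.41 CPM after AvrRps4. On this scale the flg22 samples were higher than the Pst samples (log2 difference 0.46, exact permutation p = 0.0267, two-sided), and without camta3-D AvrRpm1 replicate 2 the difference was 0.54 (exact p = 0.00667). It did not pass without wild type flg22 replicate 1 (0.40, exact p = 0.0533) or camta3-D flg22 replicate 2 (0.41, exact p = 0.0667). Time and elicitor differ together between these samples and cannot be told apart.

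**Figure D2:**
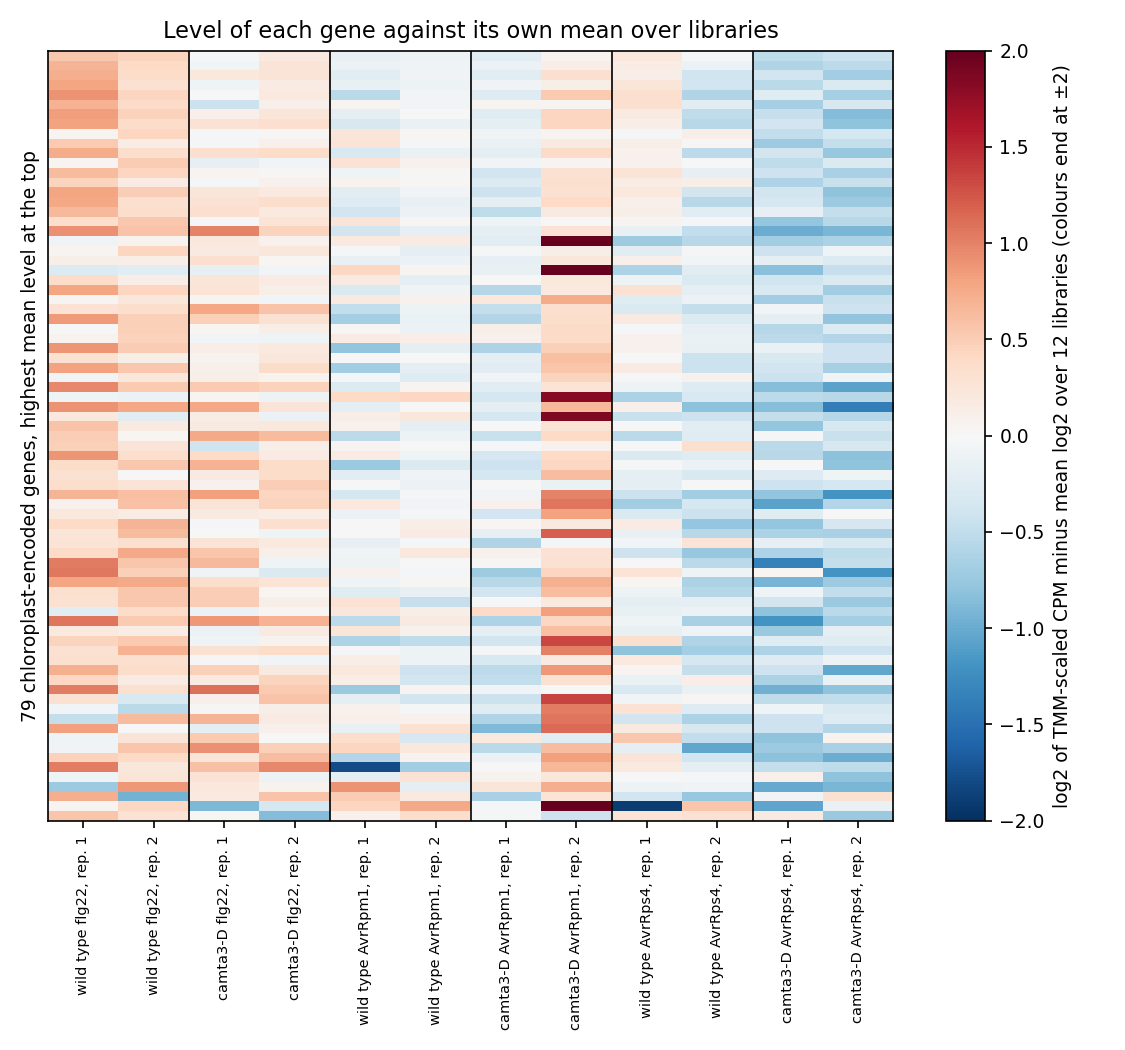
Level of each of the 79 chloroplast-encoded genes in each library (columns, by group) as log2 of TMM-scaled CPM minus the mean log2 over the 12 libraries, ordered by mean level. Red is above and blue below the mean of the gene. The flg22 columns are mostly red and the camta3-D AvrRps4 columns mostly blue, and a few genes are dark red only in camta3-D AvrRpm1 replicate 2.

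Between flg22 and Pst in wild type, 39 of the 79 genes were higher after flg22 and 0 lower at an adjusted p under 0.05 in edgeR, where 34.3% of all 19167 genes tested were called higher and 36.8% lower. The median log2 fold change was 0.51, against -0.05 over all genes tested. ATCG00400 had the smallest p. Its levels were 92.6 and 72.7 CPM after flg22, 38.0 and 43.7 after AvrRpm1 and 44.3 and 34.9 after AvrRps4, so that both flg22 libraries lay above all 4 Pst libraries (log2 fold change 1.04, SE 0.18, adjusted p = 0.000529). ATCG00300 stood at 19.6 and 14.5 CPM after flg22, 8.35 and 10.4 after AvrRpm1 and 9.46 and 8.43 after AvrRps4, again with no overlap (0.90, SE 0.17, adjusted p = 0.000928). For ATCG00480, the locus with the most counts, the flg22 levels were 6093 and 5703 CPM and the Pst levels 3795 to 4883 CPM (0.50, SE 0.12, adjusted p = 0.00396). The other genes named by their p were ATCG00470 (0.59), ATCG00640 (0.84) and ATCG01120 (0.94). For the named genes the log2 fold changes were 0.18 for ndhJ, 0.16 for ndhK, 0.22 for cemA, 0.54 for rpl20 and 0.18 for clpP, and none of these passed.

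In camta3-D the same comparison called 20 genes higher and 0 lower, where 32.5% of all genes tested were called higher and 33.9% lower, with a median of 0.37 over the 79 genes and -0.04 over all genes. ATCG00400 stood at 97.7 and 66.4 CPM after flg22, at 43.2 and 59.9 after AvrRpm1 and at 24.6 and 26.0 after AvrRps4. Both flg22 libraries were thus above all Pst libraries of the genotype (1.18, SE 0.18, adjusted p = 0.000255). ATCG00300 stood at 14.6 and 13.8 CPM against 4.81 to 12.2 (0.95, SE 0.18, adjusted p = 0.000854). Other genes with small p were ATCG00030 (1.29), ATCG00440 (0.48), ATCG00190 (0.80) and ATCG00450 (1.25). The genotypes shared 18 of these calls, 46.2% of those in wild type and 90% of those in camta3-D, and 38 genes were called in neither genotype. A test of whether the genotype effect differed between flg22 and Pst called 0 of the 79 genes (median -0.15, against 0.04 over all genes), where 0.308% of all genes tested were called. At an unadjusted p under 0.05 it also called 0 (16.2% of all genes), and DESeq2 called 0 (3.92%). The median turned to 0.05 without camta3-D AvrRpm1 replicate 2. Without replicate 1 of that group, which leaves only the library that stood apart, ATCG00490 was at -0.84, which restates its value in that library.

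The number of calls after flg22 against Pst rested in part on single libraries. In wild type, 16 genes were called without flg22 replicate 1, 12 of them among the 39. In camta3-D, 7 were called without flg22 replicate 1 and 11 without replicate 2. Without camta3-D AvrRpm1 replicate 2, 47 were higher, and without replicate 1, 10 were higher while ATCG00020, ATCG00340, ATCG00350 and ATCG00490 were lower. The median then was 0.53 and 0.24.

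The calls for flg22 against Pst were kept with another scaling of the same kind, while their number rose in camta3-D. Most were not kept with library totals. With median-ratio size factors 41 genes were higher in wild type and 31 in camta3-D, with 0 lower and medians of 0.57 and 0.42, and all 39 and 20 calls were among them. With library totals, an alternative chosen after the data were seen, the median of all genes after flg22 against Pst moved by -0.48 in wild type and -0.42 in camta3-D. The median of the 79 genes was then 0.02 and -0.05. Of the 39 calls in wild type 1 was kept, ATCG00400 (0.56, adjusted p = 0.027), and ndhK was called lower (-0.32, adjusted p = 0.024), where 21.3% of all genes tested were called higher and 53.7% lower. In camta3-D ATCG00400, ATCG00300 and ATCG00030 were kept, and ndhJ (-0.32, adjusted p = 0.0466) and ATCG00680 (-0.38, adjusted p = 0.0352) were called lower, where 20.9% of all genes were called higher and 50.3% lower. ATCG00480 and ATCG00470 turned in sign there, to -0.07 and -0.04. Relative to the median of all genes, the 79 genes stood 0.56 higher in wild type and 0.40 higher in camta3-D with TMM. With library totals the values were 0.55 and 0.40. A change of scaling moves all genes nearly alike, so these values could hardly differ between the scales, and their likeness is no test. As a share of all gene counts chloroplast counts were similar after flg22 and Pst, while the median of the 79 genes stood above that of all genes.

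**Figure D3:**
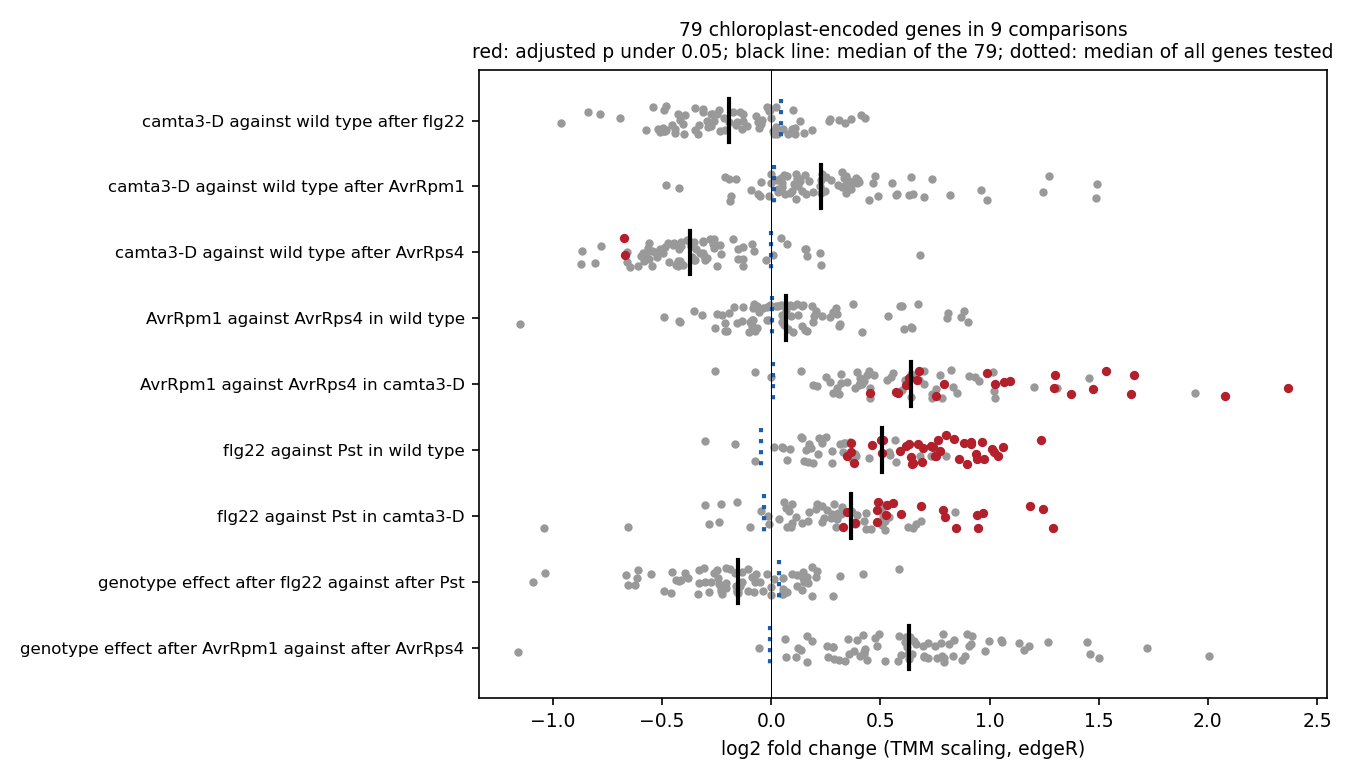
Log2 fold change (horizontal axis, TMM scaling) of each of the 79 genes in the 9 comparisons. Red points have an adjusted p under 0.05, black lines are medians of the 79 genes and dotted lines medians of all genes tested. Red points occur in 4 comparisons, 39 and 20 for flg22 against Pst, 22 for AvrRpm1 against AvrRps4 in camta3-D and 2 for the genotypes after AvrRps4, and most red points of the first 2 were not called with library totals.

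The genotypes were then compared within each treatment. After flg22, 0 of the 79 genes were called between genotypes (smallest adjusted p = 0.0734), where 10.8% of all genes did. At an unadjusted p under 0.05, 9 were lower and 0 higher in camta3-D (28.2% of all genes in either direction), and 3 were lower with DESeq2 (13.7% of all genes). Values were below those of wild type for 58 of the 79 genes, with a median of -0.19 against 0.05 over all genes. ATCG00220 had the smallest p, at 842 and 678 CPM in wild type and 385 and 556 in camta3-D (-0.69, SE 0.22, adjusted p = 0.0734). ATCG00480 stood at 6093 and 5703 CPM in wild type and 4073 and 4836 in camta3-D (-0.41, SE 0.14, adjusted p = 0.0981). For neither gene did the 2 groups overlap. Both, and ATCG00470, made up the DESeq2 calls. Without wild type flg22 replicate 1, 1 gene passed in edgeR, ndhJ (-0.64, adjusted p = 0.0447).

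After AvrRpm1, 0 of the 79 genes passed (4.52% of all genes did), 5 were higher and 0 lower at an unadjusted p under 0.05 (20.1% of all genes in either direction), and DESeq2 called 0 (7.83%). The median was 0.23, against 0.01 over all genes. It turned to -0.14 without camta3-D AvrRpm1 replicate 2 and was 0.48 without replicate 1. Without replicate 1, ATCG00020 (2.28), ATCG00490 (1.99), ATCG00350 (1.68), ATCG01050 (1.90) and ATCG00340 (1.42) passed. The camta3-D arm is then the library that stood apart alone, and the spread comes from the other groups, so these passes restate its values. The genes were chosen after their values were seen.

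After AvrRps4, 2 of the 79 genes were lower in camta3-D and 0 higher, where 2.44% of all genes were called lower. DESeq2 called 7 lower, against 4.98% of all genes. The median was -0.37, against 0.00 over all genes, and 70 of the 79 genes were below wild type. The wild-type value of this comparison leaned on 1 library, since the median was -0.25 without wild type AvrRps4 replicate 1. With library totals in place of TMM the median of all genes moved by -0.12. Relative to it the 79 genes stood at -0.38, against -0.37 with TMM. These values could hardly differ, since a change of scaling moves all genes nearly alike. ATCG00440 stood at 68.8 and 64.1 CPM in wild type and 38.8 and 44.8 in camta3-D (-0.67, SE 0.14, adjusted p = 0.0281). ATCG00270 stood at 185 and 174 CPM in wild type and 103 and 122 in camta3-D (-0.67, SE 0.17, adjusted p = 0.0495). Neither group pair overlapped, but neither gene passed with any of the 4 libraries left out (adjusted p 0.0533 to 0.173 and 0.0893 to 0.254). With the replicate number as a block ATCG00440 alone passed (adjusted p = 0.0412). ndhK stood at 250 and 277 CPM in wild type and 181 and 200 in camta3-D (-0.47, SE 0.14, adjusted p = 0.0862), and ndhJ at 157 and 149 CPM and 104 and 121 (-0.45, SE 0.15, adjusted p = 0.118). cemA stood at 17.6 and 15.3 CPM in wild type and 11.6 and 11.1 in camta3-D (-0.53, SE 0.15, adjusted p = 0.0756). In all 3 genes the camta3-D libraries lay below the wild-type libraries without passing the test. rpl20 and clpP differed less, with log2 fold changes of -0.36 and -0.25, and neither passed.

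The strains were compared within each genotype, at the same time and density of bacteria. In wild type 0 of the 79 genes passed (3.75% of all genes did), 1 was higher and 1 lower at an unadjusted p under 0.05 (19.9% of all genes), and DESeq2 called 0 (7.81%). The median was 0.07, against 0.00 over all genes. It turned to -0.04 without wild type AvrRps4 replicate 2 and was 0.23 without replicate 1 of that group.

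In camta3-D 22 genes were higher after AvrRpm1 than after AvrRps4 and 0 lower, where 10.5% of all genes were called higher. The median was 0.64, against 0.01 over all genes. ATCG00680 stood at 28.9 and 42.1 CPM after AvrRpm1 and 15.5 and 18.4 after AvrRps4 (1.07, SE 0.17, adjusted p = 0.00309). ATCG00690 stood at 3.27 and 4.39 CPM against 1.41 and 1.70 (1.30, SE 0.25, adjusted p = 0.00664). For cemA the levels were 17.7 and 21.7 CPM after AvrRpm1 and 11.6 and 11.1 after AvrRps4 (0.79, SE 0.15, adjusted p = 0.00677). The AvrRps4 libraries of camta3-D were the lowest of all 12 for each of these genes. Next came ATCG00040 (1.53, adjusted p = 0.01), ATCG00300 (0.99, adjusted p = 0.0102) and ATCG00400 (1.02, adjusted p = 0.0105). For ATCG00040 replicate 2 of AvrRpm1 stood at 9.05 CPM and replicate 1 at 4.40, against 2.64 and 1.98 after AvrRps4. Of the other named genes, ndhK (0.41, adjusted p = 0.0623), ndhJ (0.40, adjusted p = 0.0896), rpl20 (0.64, adjusted p = 0.126) and clpP (0.27, adjusted p = 0.189) did not pass.

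**Figure D4:**
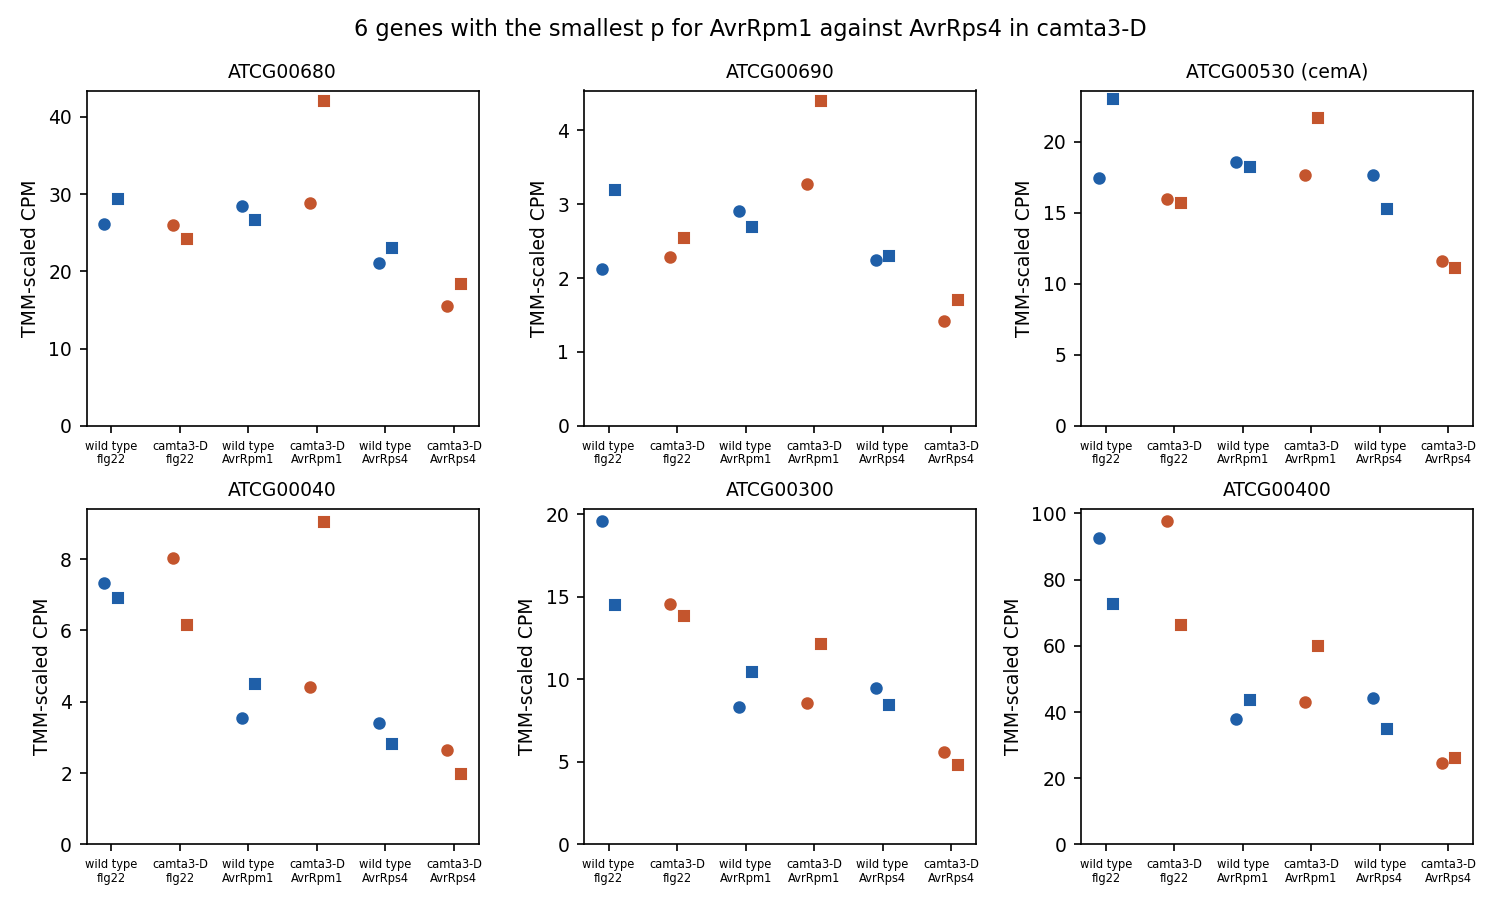
TMM-scaled CPM of the 6 chloroplast-encoded genes with the smallest p for AvrRpm1 against AvrRps4 in camta3-D, in each library by group, with circles for replicate 1 and squares for replicate 2. Both camta3-D AvrRps4 libraries are the lowest of the 12 in each panel, and replicate 2 stands above replicate 1 in camta3-D AvrRpm1.

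The number of calls rested on single libraries. Without camta3-D AvrRpm1 replicate 2, 3 genes were called, ATCG00680 (0.77, adjusted p = 0.0121), ATCG00690 (1.07, adjusted p = 0.0405) and cemA (0.64, adjusted p = 0.0422), and the median was 0.32. Without replicate 1, 39 were called, 19 of them among the 22. Without AvrRps4 replicates 1 and 2 of camta3-D, 4 and 7 were called. ATCG00680 and cemA passed with each of these 4 libraries left out, at adjusted p of at most 0.0273 and 0.0494. Each of these fits leaves 1 library in a group, which is assumed to vary like the other groups. The shares of all genes called in these fits are not given, so their counts do not set the 79 genes apart. The interaction, which asks whether the genotype effect differed between AvrRpm1 and AvrRps4, was positive for 77 of the 79 genes with a median of 0.63, against 0.00 over all genes. It called 0 of them (0.0209% of all genes), 17 were positive and 0 negative at an unadjusted p under 0.05 (15.6% of all genes), and DESeq2 called 0 (3.51%). Without camta3-D AvrRpm1 replicate 2 the median was 0.25. Without replicate 1, which leaves only the library that stood apart in that group, it was 0.89.

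Among the 79 genes, the library that stood apart did so most in a small group. In camta3-D AvrRpm1 replicate 2, 45 of the 79 genes were over 1.5 times and 21 over 2 times their level in replicate 1, and the median ratio was 1.60. In the other 5 groups the median ratio of replicate 2 to replicate 1 was 0.844 to 1.04. In this library 9 genes were more than 1.5 times above the highest of the other 11 libraries, and no other library had any such gene. They are described because they stood out, and this excess over the other libraries was not tested. The same counts were not made over all genes tested, so whether the excess is particular to chloroplast genes cannot be said. ATCG00020 stood at 185 CPM, against 29.0 in replicate 1 and at most 43.0 in the other libraries. ATCG00490 stood at 179 CPM, against 33.8 and at most 45.8. ATCG00350 (30.6 and 6.67 CPM) and ATCG00340 (33.1 and 7.31 CPM) followed, and ATCG00950, ATCG01060, ATCG01050, ATCG00560 and ATCG00130 had under 10 CPM. Together the 9 genes held 448 CPM in this library and 63.0 to 118 CPM in the other 11, or 3.11% of the counts of the 79 genes against 0.475 to 1.05%. Among the 10 loci with most counts the ratio of replicate 2 to replicate 1 ran from 0.999 for ATCG00220 (540 against 541 CPM) to 1.72 for ATCG01130 (961 against 560 CPM), and it was 1.22 for ATCG00480. The part of the non-unique alignments and of the mitochondrial share in this difference was not tested.

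**Figure D5:**
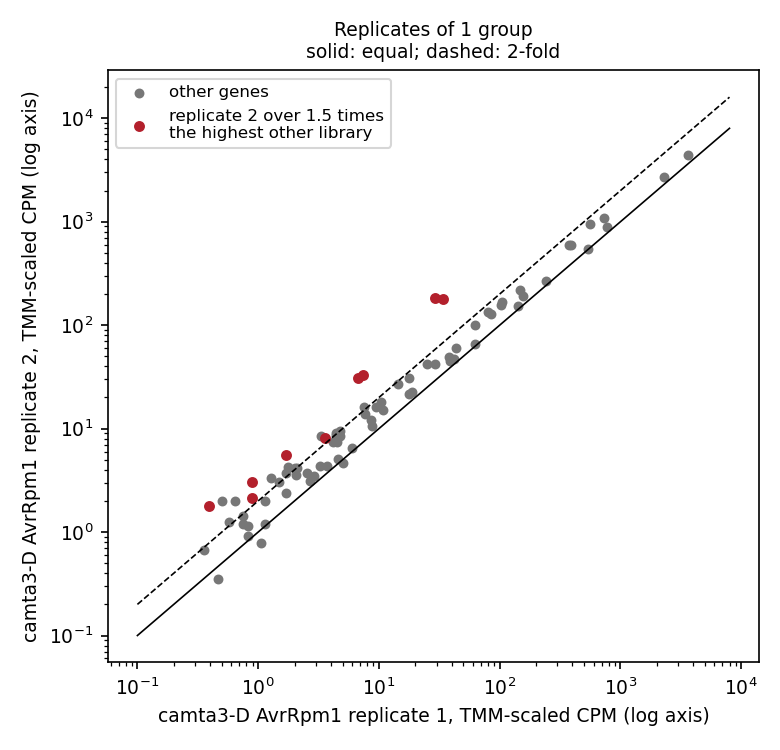
TMM-scaled CPM of the 79 chloroplast-encoded genes in camta3-D AvrRpm1 replicate 2 (vertical) against replicate 1 (horizontal), on log axes, with the solid line at equality and the dashed line at 2-fold. The 9 red genes were over 1.5 times their highest level in any other library, and ATCG00020 and ATCG00490 lie farthest from the lines at 185 and 179 CPM.

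Nuclear genes whose products act on the chloroplast genome or work with its products were set beside these values in 3 lists, written from general knowledge with earlier results of these data known. Of 19 genes for plastid transcription, 2 were higher and 15 lower after flg22 than after Pst in wild type (median -1.19), and 2 and 11 in camta3-D (median -0.70). Of all genes tested, 34.3% were higher and 36.8% lower in wild type, and 32.5% and 33.9% in camta3-D. With library totals in place of TMM, 0 were higher and 16 and 14 lower. On that scale 21.3% and 20.9% of all genes were higher and 53.7% and 50.3% lower. The sigma factor gene SIG4 stood at 2.53 and 2.85 CPM in wild type after flg22, against 39.0 to 51.9 after Pst (-4.08, SE 0.15, adjusted p = 3.52e-08), and was lower in camta3-D too (-3.93, SE 0.15, adjusted p = 5.24e-08). SIG3 (-2.91 and -2.65) and PTAC6 (-2.35 and -1.82), which encodes a protein of the plastid transcription machinery, were also lower in both genotypes. Of 17 genes for plastid RNA processing and decay, 5 were higher and 11 lower in wild type and 6 and 9 in camta3-D with TMM, beside the shares of all genes given above. HCF107, which encodes an RNA-binding protein needed for plastid transcripts, was lower in both (-1.99 and -1.58).

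The direction of the third list depended on the scaling, as did that of the chloroplast genes. Of 31 nuclear genes for subunits that work with chloroplast-encoded ones, 22 were higher after flg22 and 3 lower in wild type (median 0.34) with TMM. In camta3-D 21 were higher and 2 lower (median 0.31). Of all genes tested, 34.3% and 32.5% were higher and 36.8% and 33.9% lower. With library totals 5 of the list were higher and 9 lower (median -0.14) in wild type and 4 and 7 (median -0.10) in camta3-D. Of all genes, 21.3% and 20.9% were then higher and 53.7% and 50.3% lower. On that scale the median of all genes was -0.53 and -0.45, below that of the list in both genotypes. PSBS, a photosystem II gene, was higher on either scale (1.00 and 0.97 with TMM, 0.52 and 0.56 with library totals). NDHM, which encodes a subunit of the complex that holds ndhJ and ndhK, was lower on either scale (-2.14 and -1.92 with TMM, -2.62 and -2.33 with library totals). Other subunits of this complex in the list overlapped in wild type. NDHN stood at 40.7 and 35.5 CPM after flg22 and 26.0 to 41.4 after Pst, and NDHO at 49.4 and 39.8 and 35.7 to 52.1.

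Between genotypes after flg22, 7 of the 19 transcription genes were higher in camta3-D and 0 lower (median 0.54), and 8 of the 17 processing genes were higher and 0 lower (median 0.49), where 5.21% of all genes tested were higher and 5.59% lower. The 79 chloroplast genes had a median of -0.19. With library totals 5 and 6 were higher and 0 lower, where 4.63% of all genes were higher and 6.01% lower. SIG1 stood at 62.1 and 58.0 CPM in camta3-D and 42.5 and 40.4 in wild type (0.54, SE 0.11, adjusted p = 0.0168). SIG2 (0.61, SE 0.12, adjusted p = 0.0178) and PTAC6 (0.59, SE 0.10, adjusted p = 0.0118) were higher as well. The largest difference among the named processing genes was that of CAF2, a splicing factor gene for plastid introns (2.38, SE 0.16, adjusted p = 0.00052), and its genotype effect differed between flg22 and Pst (1.97, adjusted p = 0.0132). RNR1, an exoribonuclease gene, was also higher (0.78, SE 0.12, adjusted p = 0.00771). Of the 31 partner subunit genes, NDHO (0.74, adjusted p = 0.0242) and PSAD2 (0.47, adjusted p = 0.0336) were higher and 0 lower.

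After AvrRpm1 none of the 3 lists had a called gene between genotypes in edgeR. After AvrRps4, SIG4 (0.53, adjusted p = 0.0486), PSBO1 (0.51, adjusted p = 0.0448) and NDHO (0.68, adjusted p = 0.0475) were higher in camta3-D, where 2.49% of all genes tested were, and of these only PSBO1 passed with library totals (0.40, adjusted p = 0.0442). In camta3-D, AvrRpm1 against AvrRps4 gave 4 higher and 4 lower transcription genes, where 10.5% of all genes tested were higher and 12.4% lower. SIG5 stood at 3.66 and 5.61 CPM after AvrRpm1 and 20.6 and 19.2 after AvrRps4 (-2.10, SE 0.24, adjusted p = 0.000998). SCA3 (AT2G24120), the gene of a nuclear-encoded phage-type polymerase of the chloroplast, stood at 33.6 and 29.7 CPM and 11.4 and 10.1 (1.56, SE 0.18, adjusted p = 0.00101). In wild type 1 of the 19 was higher, SCA3 (0.88, adjusted p = 0.027), and 1 lower, SIG1 (-0.57, adjusted p = 0.0206). There 3.75% of all genes were called in either direction. SIG5 stood at 8.46 and 5.87 CPM after AvrRpm1 and 12.6 and 14.9 after AvrRps4 in wild type, and was not called. Over all 9 comparisons of the chloroplast-encoded genes, 53 of the 79 were called at least once with TMM and 26 never. The share of all genes called at least once was not computed. In wild type, flg22 against Pst alone called 34.3% of all genes higher and 36.8% lower, so this count does not set the 79 genes apart.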

How the data were processed

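The authors deposited raw read counts per gene for 12 leaf libraries, made from polyadenylated RNA (TruSeq RNA v2) with FastQC 0.11.2, TopHat2 2.0.10 and HTSeq on TAIR10. The strand and overlap settings of the counting are not given in the sources used here. Without strand, a gene and its antisense or overlapping neighbour cannot be told apart. Summary lines that name no gene (5.66 to 10.8% of all counts) stayed out of library sizes. Gene totals were 22.8 M to 26.3 M.

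Genes passing filterByExpr (minimum count 10; 19167 of 32678) were fitted with the quasi-likelihood test of edgeR 4.0.16 in R 4.3.3, with TMM scaling, 1 mean per group and 6 residual degrees of freedom. P-values were Benjamini-Hochberg adjusted over all genes tested, with 0.05 as threshold. DESeq2 1.42.0 was an alternative. The shares of chloroplast counts were compared by exact permutation within strata. The code was tested on simulated data. Replicate numbers did not pair samples (r -0.18 to 0.098 between groups, none of 15 over 0.1).

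Members and lists were chosen with earlier results of these data known. Named members were the 10 with most counts, those called in a comparison (the 6 with the smallest p where over 12 were called), those at the limit of 120 counts, and those paired with a gene name, of which 1 is not reported here. Naming the leading member of each functional group was planned but left out, since most identifiers could not be paired with names. Of nuclear lists, the genes with the 3 smallest p per comparison could be named.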

Additional observations from a re-analysis of the deposited data

Results flagged for a closer look

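In camta3-D AvrRpm1 replicate 2, 7.78% of alignments were not unique, against 2.56 to 3.43% in the other 11 libraries. The value comes from a summary line of the counting, which names no gene and enters no comparison, and its part in the levels of chloroplast genes in this library was not tested.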

How the results depend on the processing

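Counts of genes called out of the 79 changed by over 1.5 times under these settings. DESeq2 called 3 for the genotypes after flg22 and 7 after AvrRps4, where 4 were called without a filter, 9 with library totals in place of TMM and 1 with the replicate block, against 2. A fit of only the libraries compared called 1 for AvrRpm1 against AvrRps4 in wild type and 11 in camta3-D, against 0 and 22. For flg22 against Pst, library totals called 2 in wild type and 5 in camta3-D, against 39 and 20, and median-ratio size factors called 31 in camta3-D. Library totals turned the sign of ndhK (ATCG00430) in wild type to -0.32 and of ATCG00480 and ATCG00470 in camta3-D to -0.07 and -0.035. The TMM-scaled sum gave a log2 difference of 0.46 (exact permutation p = 0.0267) between flg22 and Pst, against 0.01 for the share. With each library left out, the calls ranged from 0 to 1 (genotypes after flg22), 0 to 5 (after AvrRpm1), 0 to 1 (after AvrRps4), 3 to 39 (strains in camta3-D), 16 to 35 and 7 to 47 (flg22 against Pst in wild type and camta3-D), and 0 to 1 and 0 to 4 (differences of the genotype effect between flg22 and Pst and between the strains). The share differed by -0.39 to -0.24 between genotypes by -0.055 to 0.094 between flg22 and Pst and by 0.159 to 0.386 between AvrRpm1 and AvrRps4, and the TMM-scaled sum by 0.402 to 0.536 between flg22 and Pst. A group left with 1 library is assumed to vary like the others. Apart from the shares of all genes given in the results above, those called under these settings are not given.

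Pairing by replicate number, which the data did not bear out, gave 16 calls for the strains in camta3-D, against 22, and left the other counts within 1.5 times except the one given above. The scaling on chloroplast counts alone was not run as a test, since its p would rest on this list alone. With 2 libraries per group, small differences were not detectable, and 27 genes had fewer than 1000 counts in all.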
